A study of Mus musculus with 2 samples.

Results

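Exhausted CD8+ T cells are described here from 1 pool of T cells of B16 and B16-IL33 tumors. B16 is a mouse melanoma line, and B16-IL33 is the same line engineered to overexpress the secreted form of the alarmin IL-33. Tumors in mice of the C57BL/6 background were taken on day 9, and their cells were stained with tagged antibodies, a pair of tags for each tumor line, before T cells were sorted and pooled. The pool gave 1 library each for gene expression, tags and T cell receptors (TCRs), so no value has a replicate, no p-value is given, and the intervals in parentheses are exact 95% intervals that cover counting error only. The number and age of the animals behind the pool are not given in the sources used here.

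The members were chosen by their unique molecular identifiers (UMIs), the molecules counted per gene and cell. Of 14035 barcodes, 9844 had at least 200 detected mouse genes and under 5% mitochondrial UMIs, and 1510 of these were CD8+ T cells, with at least 1 CD3 UMI and more *Cd8a* and *Cd8b1* than *Cd4* and *Foxp3* UMIs. An exhausted cell had at least 1 *Pdcd1* UMI, at least 1 *Havcr2* or *Lag3* UMI, no *Tcf7* UMI and fewer than 3 UMIs of the cell cycle genes *Mki67*, *Top2a*, *Cdk1* and *Birc5*. This held for 207 cells, 13.7% of the CD8+ T cells. They were compared with 692 checkpoint-negative CD8+ T cells, which had no *Pdcd1*, *Havcr2* or *Lag3* UMI. No limit on *Tcf7* or cell cycle UMIs was set for these. The most alike classes were 109 CD8+ T cells with *Pdcd1* and *Tcf7*, and 132 cycling cells that met the rule except for 3 or more cell cycle UMIs. The other 370 CD8+ T cells are called the remaining class.

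Exhaustion is a state that CD8+ T cells enter when their receptor keeps meeting antigen, as in tumors and chronic infection. Such cells carry the inhibitory receptors PD-1 (*Pdcd1*), TIM-3 (*Havcr2*) and LAG-3 (*Lag3*). Cells that keep the transcription factor TCF-1 (*Tcf7*) are regarded as the precursors of a more differentiated, TCF-1-negative state. Granzymes and perforin are the proteins with which cytotoxic T cells kill, and exhausted cells can keep them.

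The genes of the rule describe the members and support nothing else. Summed over the 207 cells, *Pdcd1* stood at 328 UMIs per 1000000 (CPM; 302 to 356), *Lag3* at 363 CPM (335 to 392) and *Havcr2* at 153 CPM (135 to 172). A *Lag3* UMI was found in 194 members and a *Havcr2* UMI in 121. Both were found in 108 members, *Lag3* alone in 86 and *Havcr2* alone in 13. The lineage markers were those of CD8+ T cells: 97.1% of the members had a *Cd8a* UMI and 7.25% a *Cd4* UMI. *Tox*, a transcription factor of exhausted cells that the rule did not use, was at 48.2 CPM (38.5 to 59.6) in members and at 29.8 CPM (23.5 to 37.3) in checkpoint-negative cells, a ratio of 1.62 (1.17 to 2.24). It was at 56.1 CPM (40.8 to 75.3) in the *Tcf7*+ *Pdcd1*+ class, and the intervals of those classes overlapped.

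Depth moved with the classes, and its part in the results was not tested beyond the comparisons given below. The members had a median of 6714 UMIs, against 2965 in checkpoint-negative, 6096 in *Tcf7*+ *Pdcd1*+, 14134 in cycling and 4345 in remaining cells. More than 2500 genes were detected in 62 members, and 22 members had 2 or more productive beta chains, as doublets can have. Doublets were not removed. Shares of cells with a UMI are therefore given after thinning each cell to 1500 UMIs, which 206 members and 620 checkpoint-negative cells reached. Markers of other cells were also unequal: summed UMIs of 8 macrophage genes were at 314 CPM in members and 868 CPM in checkpoint-negative cells, and those of 6 melanoma genes at 8.51 and 450 CPM. At least 5 UMIs of macrophage, melanoma or hemoglobin genes were found in 8 members and in 21 checkpoint-negative cells. Below, the value without those cells is given for the named genes and lists that it moves most.

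Several granzyme genes of mouse chromosome 14 had some of the highest ratios in members, and this group is shown first. *Gzmb* lies at chr14:56258838-56262260 and *Gzmc* at chr14:56231441-56234656, and *Gzmf*, *Gzmd* and *Gzme* follow at chr14:56205263-56211417, chr14:56129556-56132608 and chr14:56117626-56120625, all on the minus strand (GRCm38, GENCODE vM21). Their promoters, 250 bases before to 50 bases after the start site (RefSeq, GRCm38.p6, minus strand, printed 5′ to 3′), were searched on both strands for the letters TGTGGTT, bound by RUNX factors, and TGANTCA, bound by AP-1. Capitals mark the matches in the promoters of *Gzmb* (chr14:56262285-56262584), *Gzmc* (chr14:56234608-56234907) and *Gzmf* (chr14:56211358-56211657).
*Gzmb* promoter: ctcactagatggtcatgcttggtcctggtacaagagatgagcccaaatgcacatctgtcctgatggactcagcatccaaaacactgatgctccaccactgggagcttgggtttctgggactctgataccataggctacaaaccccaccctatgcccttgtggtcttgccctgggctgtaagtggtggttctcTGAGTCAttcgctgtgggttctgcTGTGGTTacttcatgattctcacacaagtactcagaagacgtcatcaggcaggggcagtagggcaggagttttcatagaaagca
*Gzmc* promoter: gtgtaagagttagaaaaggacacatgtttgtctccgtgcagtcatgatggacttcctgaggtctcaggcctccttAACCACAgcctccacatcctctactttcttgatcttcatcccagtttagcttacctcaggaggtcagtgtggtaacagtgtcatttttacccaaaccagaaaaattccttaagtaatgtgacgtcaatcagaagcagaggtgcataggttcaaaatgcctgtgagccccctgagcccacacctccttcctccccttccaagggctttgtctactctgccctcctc
*Gzmf* promoter: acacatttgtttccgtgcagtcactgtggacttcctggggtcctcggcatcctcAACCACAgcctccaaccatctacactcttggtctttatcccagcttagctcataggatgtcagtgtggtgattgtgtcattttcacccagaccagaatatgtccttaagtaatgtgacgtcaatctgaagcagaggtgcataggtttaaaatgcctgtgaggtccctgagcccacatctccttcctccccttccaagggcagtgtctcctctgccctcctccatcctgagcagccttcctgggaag
The RUNX letters were found once in each, at position -34 from the start in *Gzmb*, -175 in *Gzmc* and -196 in *Gzmf*, and also once in *Gzmd*, *Gzme* and *Gzmg*, where 5.27% of 32851 mouse promoters held them. In the *Gzmc* group the match is on the opposite strand and reads AACCACA. The AP-1 letters were found in the *Gzmb* promoter alone of these, at position -58, and 7.81% of promoters held them. All positions are counted from the RefSeq start. For *Gzmb* that start lies upstream of the GENCODE gene given above, so the whole window lies outside that gene. The matches do not overlap, and the *Prf1* promoter held neither. The window of *Gzmc* was 79.7% identical to that of *Gzmf* and 44.0% identical to that of *Gzmb*. A match is a description of letters and says nothing of binding in these cells.

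*Gzmb*, the main granzyme of killer T cells, was the most abundant of them. It was at 3264 CPM (3180 to 3349) in members, 2177 CPM (2113 to 2241) in cycling, 1286 CPM in remaining, 817 CPM (755 to 883) in *Tcf7*+ *Pdcd1*+ and 504 CPM (477 to 532) in checkpoint-negative cells. The order had no overlap of counting intervals between members and any other class. At 1500 UMIs per cell, 75.2% (68.8 to 81.0) of members had a *Gzmb* UMI. The share was 75.8% (67.5 to 82.8) in cycling cells, with an overlapping interval, and 31.1% (27.5 to 34.9) in checkpoint-negative cells. In checkpoint-negative conventional CD4+ T cells, which should hold little *Gzmb*, the share was 14.9% (12.8 to 17.2). Those CD4+ cells numbered 1210, with a median of 2530.5 UMIs, and 1035 of them reached the thinning depth. Unthinned, 89.9% of members and 39.0% of checkpoint-negative cells had a UMI.

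*Prf1*, which encodes the pore-forming protein perforin, differed more. Its level was 582 CPM (547 to 619) in members and 38.8 CPM (31.5 to 47.3) in checkpoint-negative cells, a ratio of 15.0 (12.2 to 18.6). *Prf1* was at 325 CPM (301 to 350) in cycling and at 89.2 CPM (69.6 to 113) in *Tcf7*+ *Pdcd1*+ cells. After thinning, 33.5% (27.1 to 40.4) of members, 31.1% (23.3 to 39.7) of cycling cells and 6.45% (4.65 to 8.68) of checkpoint-negative cells had a *Prf1* UMI, and 1.06% of the conventional CD4+ cells did.

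*Gzmc* was at 1320 CPM (1267 to 1375) in members and 22.3 CPM (16.9 to 29.0) in checkpoint-negative cells, a ratio of 59.1 (45.4 to 78.2). The level in checkpoint-negative cells had an interval that overlapped the 20.9 CPM (16.5 to 26.2) in conventional CD4+ cells. A *Gzmc* UMI was found in 25.2% (19.5 to 31.7) of thinned members, 31.1% of cycling, 8.33% of *Tcf7*+ *Pdcd1*+ and 1.29% of checkpoint-negative cells. *Gzmf* reached 553 CPM (518 to 588) in members against 5.88 CPM (3.29 to 9.70), a ratio of 94.0 (56.7 to 169), the highest of all genes tested when UMIs are summed. As a mean over cells, which weights each cell equally, its ratio was 17.0, under that of *Gzmc* at 32.1. *Gzme* and *Gzmd* had ratios of 30.6 (13.7 to 85.0) and 27.3 (14.1 to 60.8). The transcripts of *Gzme* and *Gzmf* are 85.2% identical and those of *Gzmd* and *Gzmf* 82.9%, so reads may be split or lost between these copies and their separate levels are uncertain.

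**Figure D1:**
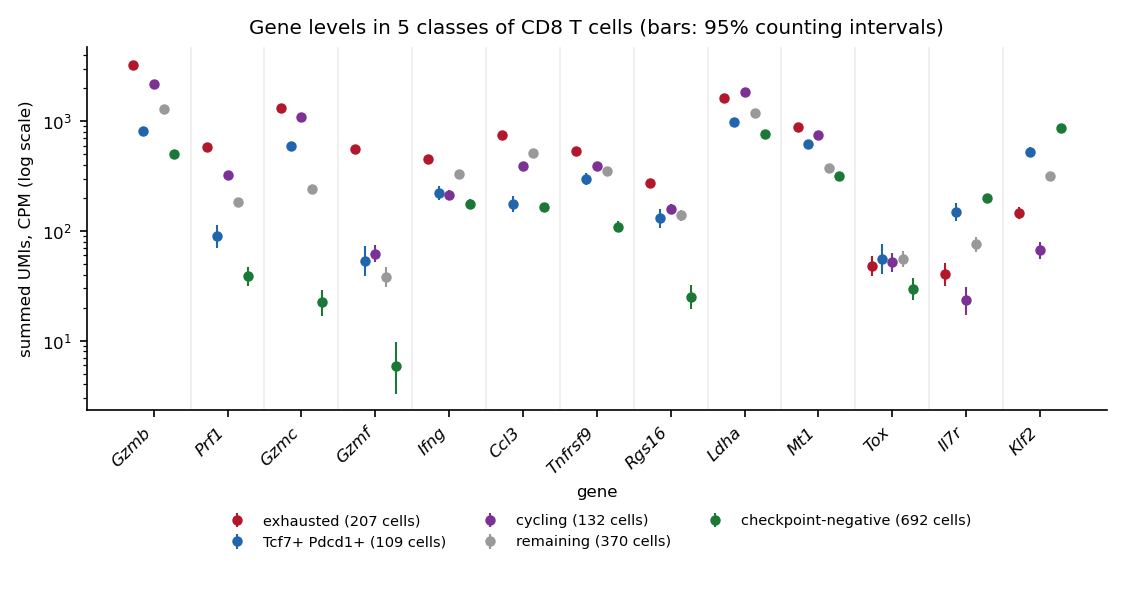
Summed UMIs of 13 genes in the 5 classes of CD8+ T cells, as CPM on a log axis, with bars for the 95% counting interval. *Gzmb*, *Prf1*, *Gzmc*, *Gzmf*, *Ccl3*, *Tnfrsf9* and *Rgs16* are highest in the 207 exhausted cells (red), *Tox* is at a similar level in all classes but the checkpoint-negative one, and *Il7r* and *Klf2* are highest in checkpoint-negative cells (green).

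The granzymes differed in how many members carried them. *Gzmb* was found in 186 of the 207 members, with a median of 12 UMIs per cell, and 21 cells held 50% of its UMIs. *Prf1* was found in 143 members and *Gzmc* in 77. *Gzmf* was found in 26 members, and 1 of them held 658 of its 974 UMIs (67.6%), while the next held 73 and 59. That cell had 19755 UMIs, 1 beta chain and also 431 *Gzmc*, 57 *Gzmd* and 45 *Gzme* UMIs, so 3.33% of all its UMIs were *Gzmf*. It also held the most *Mt1* UMIs, 251 of 1573. The mean over cells lowered the ratios to checkpoint-negative cells of the whole group, to 17.0 for *Gzmf*, 5.83 for *Gzmd*, 6.92 for *Gzme*, 32.1 for *Gzmc*, 4.46 for *Gzmb* and 8.40 for *Prf1*.

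*Penk*, which encodes the opioid precursor proenkephalin, was as uneven. Of its 232 UMIs 118 came from 1 member (50.9%), and 19 members had any. *Serpine2*, a protease inhibitor, had 69 of 143 UMIs in 1 member. Other genes were spread more evenly, with 3.65% of the UMIs in the top cell for *Gzmb*, 4.15% for *Rgs16* and 4.55% for *Tnfrsf9*.

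**Figure D2:**
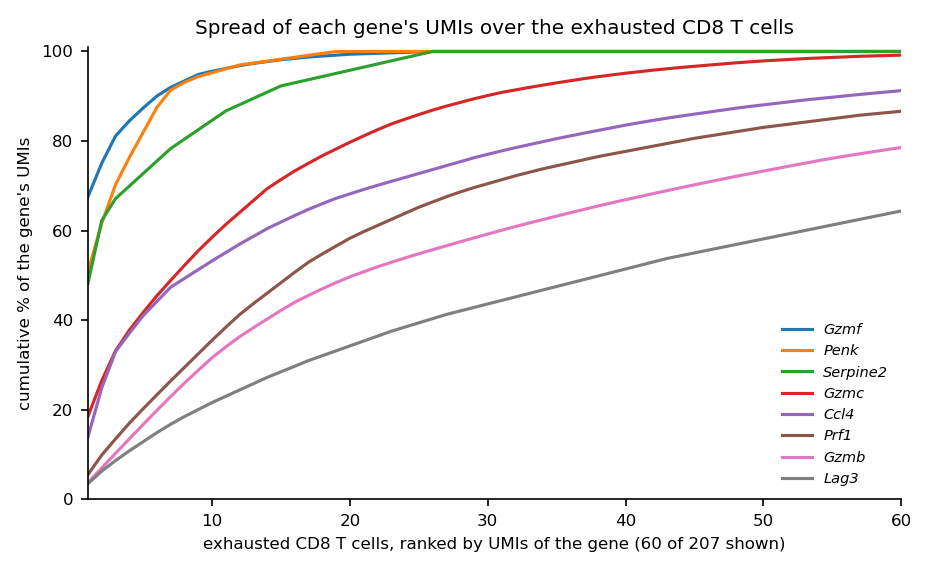
Cumulative share of a gene's UMIs over the exhausted CD8+ T cells, ranked for each gene by its UMIs, with the first 60 of 207 cells shown. The curve of *Gzmf* starts at 67.6% and that of *Penk* at 50.9% with 1 cell, whereas *Gzmb* needs 21 cells and *Lag3* 39 cells to reach 50%.

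*Gzmc* accompanied the other granzymes of its group in most members that had them. Of the 26 members with *Gzmf*, 24 had *Gzmc* (92.3%), and of the 181 without it 53 did (29.3%). All 14 members with *Gzmd* and all 11 with *Gzme* had *Gzmc*, and 10 cells had both *Gzmd* and *Gzme*. Of all members, 61.8% had none of *Gzmc*, *Gzmd*, *Gzme* and *Gzmf*, 23.2% had 1 of them, and 2.90% had all of them; none was found in 96.7% of checkpoint-negative and 47.0% of cycling cells. These shares are unthinned, and the classes differ in depth as given above. A *Penk* UMI was found in 1 of the 26 members with *Gzmf* (3.85%) and in 11 of the 77 with *Gzmc* (14.3%), against 8 of the 130 without *Gzmc* (6.15%).

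Against checkpoint-negative cells, 4357 genes with at least 100 UMIs over both groups were tested, without the genes of the rule and the TCR segment genes. Of these, 141 were at least 2-fold higher in members (3.24%) and 213 at least 2-fold lower (4.89%), 8.12% in either direction, with a median log2 ratio of all genes of -0.01. All 141 and 213 had intervals on 1 side of equality. The minimum of 100 UMIs and the 2-fold limit already bring this about, so it adds no support. When the cell with the most UMIs of each gene was left out, when cells were weighted equally and when only cells of at least 3000 UMIs were used, 103 and 121 genes passed the same 2-fold limit each time. The counts describe this library and not the tumors. The counts of each gene list below are to be read beside these shares of 3.24% and 4.89%.

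The 12 highest ratios included *Gzmf*, *Gzmc*, *Gzme*, *Gzmd* and *Prf1*, but not *Gzmb*. The others were *Serpinb9b* with 53.1 (24.0 to 146), *Tff1* with 36.7 (20.7 to 71.7), *Serpine2* with 29.6 (14.0 to 74.9), *Il1r2* with 17.7 (11.2 to 29.4), *Nrgn* with 16.8 (9.10 to 34.6), *Penk* with 16.8 (10.6 to 28.0) and *AA467197* with 13.2 (9.57 to 18.7). *Serpinb9b* belongs to the granzyme-inhibiting serpins and had 220 UMIs in 30 members against 6 in the checkpoint-negative cells. *Tff1*, a secreted trefoil peptide known from the stomach, was found in 61 members and 8 checkpoint-negative cells, at 172 CPM (154 to 193) and 4.70 CPM (2.43 to 8.22). *Il1r2*, the decoy receptor of IL-1, was found in 65 members and *AA467197* in 100 members. *Tff1* stood at 59.1 without the cells that held foreign UMIs. As a mean over cells, it was at 124 CPM in members and 2.65 CPM in checkpoint-negative cells, a ratio above that of *Gzmc*. By the same measure, *Serpinb9b*, *Il1r2* and *Nrgn* had ratios above that of *Gzmf*, and *Serpine2*, *Penk* and *AA467197* had lower ones. In the checkpoint-negative cells, the ratios of *Tff1* and *Nrgn* rested on 12 and 11 UMIs, and that of *Serpine2* on 7. Those of *Gzme* and *Gzmd* rested on 6 UMIs in 2 cells and on 9 UMIs in 1 cell. Cycling cells had more *Nrgn* than members, at 119 CPM (104 to 134) against 72.6 CPM (60.6 to 86.3). They also had more *Gzme*, at 103 CPM (89.6 to 118) against 72.0 CPM (60.1 to 85.7). *Serpine2* was at 85.5 CPM (73.4 to 99.2) against 81.1 CPM (68.4 to 95.6), which overlapped. The rest of the 12 had more CPM in members than in cycling cells.

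The cytotoxic granule list showed both directions. Of 15 measured genes, 8 were at least 2-fold higher and 2 at least 2-fold lower, with a median log2 ratio of 1.63. The higher ones were the 5 chromosome 14 granzymes above, *Prf1*, and *Serpinb9* and *Serpinb6b*, inhibitors that protect the cell from its own granules, with ratios of 3.1 (2.45 to 3.93) and 3.92 (3.40 to 4.52). *Nkg7*, a granule protein, stood just under the limit, at 2581 CPM against 1327 CPM, a ratio of 1.95 (1.86 to 2.03). *Gzma* was lower, at 378 CPM against 947 CPM, a ratio of 0.40 (0.37 to 0.44), as was the lysosomal protein *Lamp1* at 0.41 (0.32 to 0.52). Among cells of at least 3000 UMIs, 11 genes of the list were higher and 1 was lower.

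Chemokines and cytokines were mixed as well. Of 12 measured genes, 4 were higher and 4 lower, with a median log2 ratio of -0.13. The median was 0.75 without the cells that held foreign UMIs, 0.37 as a mean over cells, with 5 genes higher and 1 lower, and 0.89 with 1 cell per clone. *Ccl3*, a chemokine that draws inflammatory cells, was at 755 CPM against 164 CPM, a ratio of 4.59 (4.11 to 5.14), and *Ccl4* was at 2193 CPM against 938 CPM, a ratio of 2.34 (2.22 to 2.46). *Ifng*, the interferon of cytotoxic cells, was at 455 CPM (424 to 488) against 177 CPM (161 to 194), a ratio of 2.57 (2.29 to 2.89). *Ccl1* had a ratio of 7.63 (4.81 to 12.6) and was found in 13 members. *Ccl5*, abundant in both, was lower at 4530 CPM against 9215 CPM, a ratio of 0.49 (0.48 to 0.50), and *Tnf* was at 15.9 CPM against 33.7 CPM, a ratio of 0.47 (0.30 to 0.73). *Cxcl10* and *Spp1* were the other lower genes, at ratios of 0.11 (0.07 to 0.18) and 0.44 (0.36 to 0.53), and both are genes that macrophages express. Without the cells that held foreign UMIs, the ratio of *Cxcl10* was 0.38 and that of *Spp1* turned to 1.98.

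Inhibitory receptors outside the rule were less far apart than the granzymes. Of 8 measured genes, 2 were at least 2-fold higher, *Entpd1* (CD39) at 3.66 (2.46 to 5.54) and *Ctla4* at 2.62 (2.29 to 3.0), and none was 2-fold lower. *Tigit* was at 212 CPM against 108 CPM, a ratio of 1.96 (1.67 to 2.29), and *Cd160* at 52.8 CPM against 58.4 CPM, a ratio of 0.90 (0.69 to 1.18). Of 12 costimulatory receptors, 2 were higher and 1 was lower, where 3.24% and 4.89% of all genes were. *Tnfrsf9* (4-1BB), which marks recently stimulated T cells, had a ratio of 4.89 (4.27 to 5.61) and *Tnfrsf4* (OX40) 2.48 (2.12 to 2.89). *Cd7* was lower at 0.26 (0.21 to 0.32).

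Of 18 exhaustion and effector transcription factors, 3 were higher and 2 lower, with a median log2 ratio of 0.15. Over all genes tested, 3.24% were higher and 4.89% lower. *Rbpj*, which acts downstream of Notch, was at 109 CPM against 30.2 CPM, a ratio of 3.61 (2.76 to 4.76), *Bhlhe40* had a ratio of 2.42 (2.15 to 2.73) and *Id2* 2.05 (1.91 to 2.21). *Nr4a1*, an early gene of receptor stimulation, was lower at 85.7 CPM against 177 CPM, a ratio of 0.48 (0.40 to 0.58), and *Ikzf2* was at 0.48 (0.39 to 0.58). *Eomes*, *Tbx21*, *Batf*, *Nr4a2* and *Nr4a3* had ratios between 0.95 and 1.16 with intervals that held 1.

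Naive and memory genes were lower as a group. Of 16 measured genes, 12 were at least 2-fold lower and 0 at least 2-fold higher, with a median log2 ratio of -2.13. Because *Tcf7* was part of the rule, a list that includes its companions is not independent of the choice of members. *Ccr7*, which guides T cells to lymph nodes, had a ratio of 0.11 (0.06 to 0.18), and *S1pr1*, with which T cells leave tissue, one of 0.15 (0.09 to 0.24). The factors *Klf2*, *Lef1* and *Id3* had ratios of 0.17 (0.15 to 0.19), 0.21 (0.15 to 0.29) and 0.0255 (0.0093 to 0.056), and the survival receptor *Il7r* one of 0.20 (0.16 to 0.26). The genes of the list that did not pass were *Ly6c2* at 1.02, *Cd44* at 0.91, *Foxo1* at 0.63 and *Il2rb* at 1.63.

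Of the 12 lowest ratios in the unfiltered comparison, 4 belonged to hemoglobin genes and 3 to melanoma genes, and few cells held most of their UMIs. For *Hbb-bs*, 99.7% of the 775 UMIs of the checkpoint-negative group lay in 1 cell, and for *Dct*, a melanoma gene, 38.0% of 681 UMIs did. Without the 8 members and 21 checkpoint-negative cells with 5 or more such UMIs, the lowest included *Klra7*, *Id3*, *Rflnb*, *Nsg2*, *Igfbp4*, *Dapl1*, *1700025G04Rik*, *Ccr7*, *Cmah*, *Klf3* and *S1pr1*. *Klra7*, an inhibitory receptor of the Ly49 family, had 1 UMI in the members and 173 in 63 checkpoint-negative cells, a ratio of 0.0084 (0.0002 to 0.047). Several Ly49 genes are near-identical copies, so the share of *Klra7* among them is uncertain.

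Genes of glycolysis and the hypoxia response were higher as a group. Of 19 measured genes, 12 were at least 2-fold higher and 0 at least 2-fold lower, with a median log2 ratio of 1.11. The glucose transporter *Slc2a3* had a ratio of 5.79 (4.39 to 7.74), the lactate exporter *Slc16a3* 3.82 (2.79 to 5.30) and the hypoxia gene *Ndrg1* 3.89 (2.74 to 5.61). The enzymes *Aldoa*, *Gapdh*, *Pgk1*, *Tpi1* and *Ldha* had ratios from 2.16 to 2.74, and *Eno1* and *Pkm* stood at 2.01 and 2.03. Among cells of at least 3000 UMIs, 6 of the 19 passed the limit, and without the cells that held foreign UMIs 14 did, with *Pgk1* at 3.66, *Tpi1* at 3.44 and *Slc16a3* at 6.18. The metallothionein genes *Mt1*, *Mt2* and *Mt3*, which bind zinc, had ratios of 2.83 (2.60 to 3.08), 2.69 (2.17 to 3.34) and 6.79 (4.52 to 10.5). Without the cells that held foreign UMIs, *Mt1* stood at 11.4, *Mt2* at 7.77 and *Mt3* at 6.67, and as a mean over cells at 5.56, 4.29 and 5.35. In 1 checkpoint-negative cell lay 40.9% of the *Mt1* and 40.3% of the *Mt2* UMIs of that class. Both lists were nearer to the most alike classes. Against cycling cells, 2 of 19 glycolysis genes were higher, with a median log2 ratio of 0.17, and 0 of 3 metallothionein genes. Over all genes of that comparison, 2.26% were higher. Against *Tcf7*+ *Pdcd1*+ cells, 2 of 19 (median 0.70) and 1 of 3 were higher, where 2.29% of all genes were.

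Immediate early genes are induced within minutes of stimulation or of tissue handling. Of 10 measured, 4 were at least 2-fold lower, 0 were 2-fold higher and 6 lay between the limits, with a median log2 ratio of -0.85. The count of lower genes was 6 without the cells that held foreign UMIs. *Fos* was at 161 CPM against 603 CPM, a ratio of 0.27 (0.23 to 0.30), and *Zfp36*, *Fosb* and *Jun* had ratios of 0.30, 0.35 and 0.45. Of 13 genes of TCR signaling feedback, *Ubash3b* was higher at 2.24 (1.69 to 2.97), and *Socs1* and *Socs3* were lower at 0.38 (0.30 to 0.49) and 0.24 (0.17 to 0.32). The shares over all genes were 3.24% higher and 4.89% lower.

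The other lists had fewer genes past 2-fold. Over all genes tested, 3.24% were higher and 4.89% lower, and single genes of such short lists are little to set against these shares. Of 13 interferon-induced genes, *Ly6a* was higher at 2.37 (2.22 to 2.53) and 3 were lower, *Ifit3*, *Rsad2* and *Rtp4*. The counts were 2 higher and 2 lower without the cells that held foreign UMIs, where *Rsad2* stood at 1.26. Of 9 residency and homing genes, *Rgs16* had a ratio of 10.9 (8.38 to 14.4), *Cxcr6* 2.72 (2.41 to 3.07) and *Rgs1* 2.04 (1.86 to 2.25), and *Cd69* and *Cxcr3* were lower at 0.42 and 0.46. Of 11 survival genes, *Bcl2a1d* was among the higher at 2.73 (2.18 to 3.42), and *Bcl2* was lower at 0.25 (0.19 to 0.32). Of 9 terminal effector genes, *Klra7* and *Itgb7* were lower and none higher. None of 15 cell cycle genes outside the rule was 2-fold apart. The rule capped cell cycle UMIs in members but not in checkpoint-negative cells, so this list is not independent of the choice of members. Of the marker lists of other cells, 5 of 9 macrophage genes, 4 of 4 melanoma genes and 1 of 2 B cell genes were lower in members, *Il2ra* was higher among 2 regulatory and helper T cell genes, and the 1 natural killer cell gene measured, *Eomes*, was at 1.12. Without the cells that held foreign UMIs, 1 macrophage gene and 1 melanoma gene were lower, and 1 of each was higher.

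**Figure D3:**
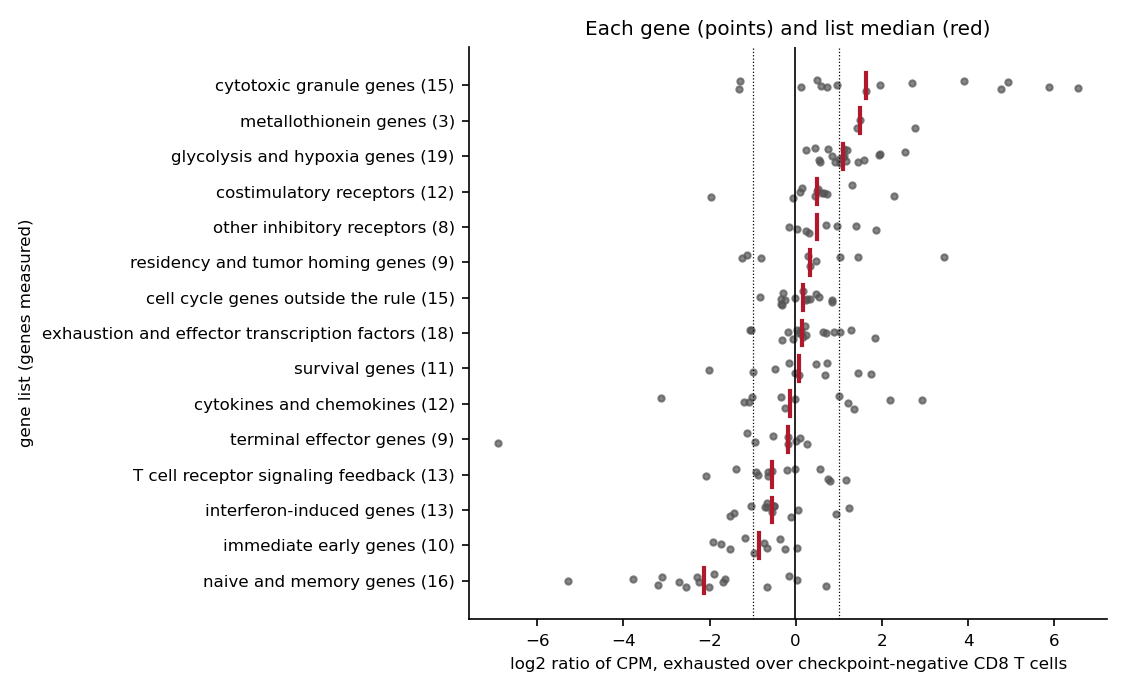
Log2 ratio of CPM, exhausted over checkpoint-negative CD8+ T cells, for each measured gene of 15 lists (points) with the list median (red bar). The black line is the median of all 4357 genes and the dotted lines mark 2-fold; the cytotoxic and glycolysis lists lie to the right, with medians of 1.63 and 1.11, and the naive and memory list to the left, with -2.13.

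The *Tcf7*+ *Pdcd1*+ class had the median depth nearest to that of the members. It differed from them in *Tcf7* and did not require *Havcr2* or *Lag3*. Of 2791 genes tested, 64 were at least 2-fold higher in members (2.29%) and 55 at least 2-fold lower (1.97%), 4.26% in either direction. The highest ratios were those of *Gzmf* with 10.3 (7.58 to 14.4), *Penk* with 6.88 (4.09 to 12.5; 16.04 without the cells that held foreign UMIs), *Prf1* with 6.52 (5.12 to 8.43), *Gzmd* with 5.82 (3.31 to 11.2) and *Il1r2* with 5.71 (3.58 to 9.66). In the *Tcf7*+ *Pdcd1*+ class, 97.6% of the 42 *Gzmf* UMIs came from 1 of 2 cells. *Gzmb* had a ratio of 3.99 and *Ccl3* one of 4.26. Of 15 cytotoxic genes, 7 were higher and 1 lower. Of 12 naive and memory genes, 6 were lower, among them *Ccr7* at 0.10 (0.06 to 0.16), *Slamf6* at 0.20 (0.13 to 0.30), *Il7r* at 0.27 (0.20 to 0.37), *Klf2* at 0.28 (0.24 to 0.33) and *Lef1* at 0.33 (0.22 to 0.49). *Slamf6* encodes a surface receptor used to mark TCF-1+ precursors. Because *Tcf7* itself split these classes, a list that includes its companions is not independent of the split. The chemokines *Ccl7*, *Ccl2* and *Ccl6* were also among the 5 lowest, but without cells that held foreign UMIs their ratios were 0.15, 0.52 and 1.08 in place of 0.07, 0.08 and 0.22.

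The cycling class met the same checkpoint limits as the members at a greater depth, with medians of 14134 and 6714 UMIs. Of 3937 genes tested, 89 were at least 2-fold higher in members (2.26%) and 229 at least 2-fold lower (5.82%), 8.08% in either direction. All 23 measured cell cycle genes outside the rule were lower, and cell cycle genes were what split these classes. Of 15 cytotoxic genes, *Gzmf* was at least 2-fold higher, at 8.88 (7.38 to 10.8), and none was at least 2-fold lower. The *Gzmf* ratio rested on the member with 67.6% of its UMIs: it was 4.79 without the top cell of each class and 4.41 as a mean over cells, and the thinned shares of 6.80% (3.77 to 11.1) and 3.79% (1.24 to 8.62) overlapped. *Gzmb* had a ratio of 1.5, *Prf1* 1.79 and *Gzmc* 1.22. The other 4 of the highest ratios were *Ifitm1* with 6.22 (4.85 to 8.08), *Cd7* with 5.62 (3.53 to 9.35), *H2-Ab1* with 4.22 (3.06 to 5.91) and *Slfn1* with 4.10 (2.73 to 6.33). *H2-Ab1* is an MHC class II gene, and 46.3% of its UMIs in members came from 1 cell. Without the cells that held foreign UMIs its ratio was 8.39. Of 9 interferon-induced genes, 6 were higher in members, among them *Isg15*, at 242 CPM against 71.0 CPM. The share of members with a granzyme UMI after thinning, 75.2% for *Gzmb* and 25.2% for *Gzmc*, had intervals that overlapped those of the cycling shares of 75.8% and 31.1%.

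Members also differed among themselves. The 121 with a *Havcr2* UMI had a median of 8624 UMIs and the 86 with *Lag3* alone 5435. Of 1989 genes tested, 27 were at least 2-fold higher in the *Havcr2*+ members (1.36%) and 17 at least 2-fold lower (0.855%), 2.21% in either direction. Of 13 cytotoxic genes, 6 were higher and 0 lower: *Gzmc* was at 1726 CPM against 344 CPM, a ratio of 5.02 (4.31 to 5.89), *Gzmf* at 10.8 (7.77 to 15.6), *Prf1* at 2.22 (1.87 to 2.64), *Gzmd* at 2.66 (1.71 to 4.33), *Gzme* at 2.69 (1.61 to 4.79) and *Serpinb6b* at 2.11 (1.74 to 2.59). The member with the most *Gzmf* UMIs had 5 *Havcr2* UMIs and so lay in the *Havcr2*+ group. It held 658 of the 974 *Gzmf*, 57 of the 170 *Gzmd* and 45 of the 127 *Gzme* UMIs of all members. The ratios of these genes therefore lean on 1 cell. *Gzmb* was at 3762 CPM against 2066 CPM, a ratio of 1.82 (1.70 to 1.95), and *Gzma* at 296 CPM against 573 CPM, a ratio of 0.52 (0.44 to 0.60). *Penk* had the highest ratio, 23.7 (9.14 to 87.8), from 15 cells against 4, with 51.8% of its UMIs in 1 cell. *Mt1*, *Mt2* and *Mt3* were higher at 2.67 (2.31 to 3.1), 5.68 (3.47 to 9.91) and 3.94 (2.22 to 7.60). *Ccl5* and *Klf2* were lower at 0.50 (0.48 to 0.52) and 0.40 (0.31 to 0.52), and *Ifng* was at 438 CPM against 496 CPM, a ratio of 0.88 (0.76 to 1.03). The MHC class II genes *H2-Eb1*, *H2-Aa*, *H2-Ab1* and *Cd74* were at 0.26 to 0.37, with 68.5% to 86.3% of the Lag3-only UMIs in 1 cell each. Without the cell with the most UMIs in each class, *H2-Ab1* turned to 1.60, *Cd74* stood at 0.87, *H2-Eb1* at 0.75 and *H2-Aa* at 0.35. Without the cells that held foreign UMIs the ratios were 0.03 to 0.12. *Pf4* and *Hmox1* were also among the 5 highest, and without those cells their ratios were 0.43 and 1.84.

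Cells just inside and just outside the limits are described by *Gzmb*. The 71 members with 1 *Pdcd1* UMI had 2667 CPM and the 136 with more had 3485 CPM, whereas 148 cells that met every other limit without a *Pdcd1* UMI had 1856 CPM. The 44 members with 1 *Havcr2* or *Lag3* UMI had 1328 CPM, and 91 cells with none but otherwise alike had 1532 CPM. The 20 cells that failed by 1 *Tcf7* UMI had 2222 CPM, and the 17 that failed by having exactly 3 cell cycle UMIs had 3865 CPM. *Prf1* was at 417, 643 and 314 CPM in the cells by *Pdcd1*, in the same order. The median depth by *Pdcd1* differed in the same way, with 5447, 7792 and 3482 UMIs. At the *Havcr2* or *Lag3* limit it did not, with 5198 UMIs in the 44 members and 2816 in the 91 cells outside. *Ifng* was at 369 CPM (297 to 453) in those 44 members and 469 CPM (435 to 505) in the 163 with more. In the 91 cells outside it was higher, at 828 CPM (734 to 930). By *Pdcd1*, in the order above, *Ifng* was at 572, 412 and 385 CPM.

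TCR chains come from another library and were not part of the rule. Clones were taken from the clonotypes of Cell Ranger, and those with at least 2 CD8+ T cells counted as expanded. Of the 187 members with a clonotype, 78 were in expanded clones, 41.7% (34.6 to 49.1). The share was 14.2% (11.2 to 17.6; 68 of 479) in checkpoint-negative cells, a difference of 27.5 percentage points (19.6 to 35.5), and 17.9% (10.8 to 27.1; 17 of 95) in *Tcf7*+ *Pdcd1*+ cells, a difference of 23.8 points (12.2 to 34.1). Cycling cells had 42.5% (33.8 to 51.6; 54 of 127), with a difference of -0.81 points (-12.4 to 10.6), an interval that leaves room for a higher share in either class. Remaining cells lay between, with 30.2% (24.9 to 36.0; 85 of 281), a difference from members of 11.5 points (2.29 to 20.6). A clonotype was found for 90.3% of members and 69.2% of checkpoint-negative cells. Among cells of at least 3000 UMIs the difference was 30.7 points (22.2 to 39.1). With expansion from 3 cells it was 17.2 points (10.7 to 24.3). Cells of a clone are not independent, so the intervals are too narrow.

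**Figure D4:**
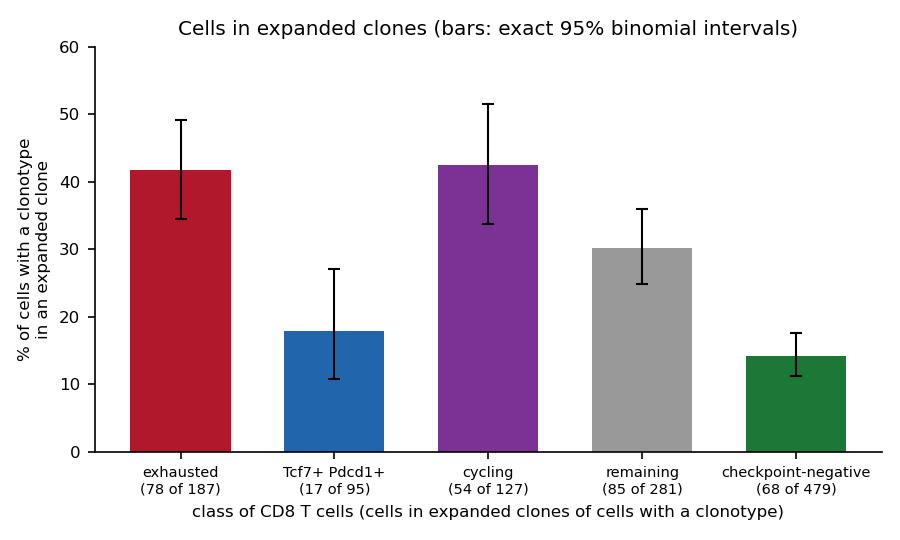
Share of cells with a clonotype that belong to an expanded clone, by class of CD8+ T cells, with exact 95% binomial intervals and the numbers of cells under each bar. The exhausted and cycling classes stand at 41.7% and 42.5%. The remaining class is at 30.2%, the *Tcf7*+ *Pdcd1*+ class at 17.9% and the checkpoint-negative class at 14.2%.

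The 187 members fell into 157 clones, and 18 clones had 2 or more members. A clone mate in another class was found for 66 members, 35.3% (28.5 to 42.6). It was in the remaining class for 43 members (23.0%), in the cycling class for 30 (16.04%), in the checkpoint-negative class for 27 (14.4%) and in the *Tcf7*+ *Pdcd1*+ class for 7 (3.74%). In clones, 14 of the 157 member clones (8.92%) were shared with the cycling class, where they were 13.3% of 105 clones, and 6 (3.82%) with the *Tcf7*+ *Pdcd1*+ class, where they were 6.45% of 93. The classes differ in size, which bears on how often a clone is shared.

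The 5 clones with 3 or more members are shown by their CDR3 sequences, which identify the clone, from the cysteine to the last codon of the region. Capitals mark the bases past the match to the germline V and J segments of GENCODE vM21, where the chain was joined.
Clone 1, TRAV6N-7 and TRAJ21: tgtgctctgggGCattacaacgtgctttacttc
Clone 1, TRBV15 and TRBJ2-1: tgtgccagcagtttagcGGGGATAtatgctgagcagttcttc
Clone 2, TRAV12-1 and TRAJ47: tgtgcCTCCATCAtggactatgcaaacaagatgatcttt
Clone 2, TRBV31 and TRBJ1-2: tgtgcctggagtctGGTctacaccttc
Clone 3, TRAV14-2 and TRAJ47: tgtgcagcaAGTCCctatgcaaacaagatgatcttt
Clone 3, TRBV12-1 and TRBJ2-3: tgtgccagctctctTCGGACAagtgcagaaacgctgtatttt
Clone 4, TRAV12D-2 and TRAJ13: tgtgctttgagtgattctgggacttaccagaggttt
Clone 4, TRBV30 and TRBJ1-1: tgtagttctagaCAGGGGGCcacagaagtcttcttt
Clone 5, TRAV6N-7 and TRAJ30: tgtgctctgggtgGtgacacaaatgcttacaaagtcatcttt
Clone 5, TRBV19 and TRBJ2-4: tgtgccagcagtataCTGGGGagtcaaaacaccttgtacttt
Each pair was found in all CD8+ T cells of its clone. Clone 1 had 14 CD8+ T cells, of which 8 were members, 2 cycling, 2 checkpoint-negative and 2 of the remaining class. Clone 4 had 3 members among 8 cells and 4 cycling cells, and clone 5 had 3 members and 3 cycling cells among 7. None of the 5 clones had a *Tcf7*+ *Pdcd1*+ cell. The bases past the V and J match numbered 7 in the beta chain of clone 1 and 0 in the alpha chain of clone 4. D segments of beta chains were not matched, so the capitals of beta chains can hold germline D bases. The numbers of beta and alpha chains are therefore not alike.

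**Figure D5:**
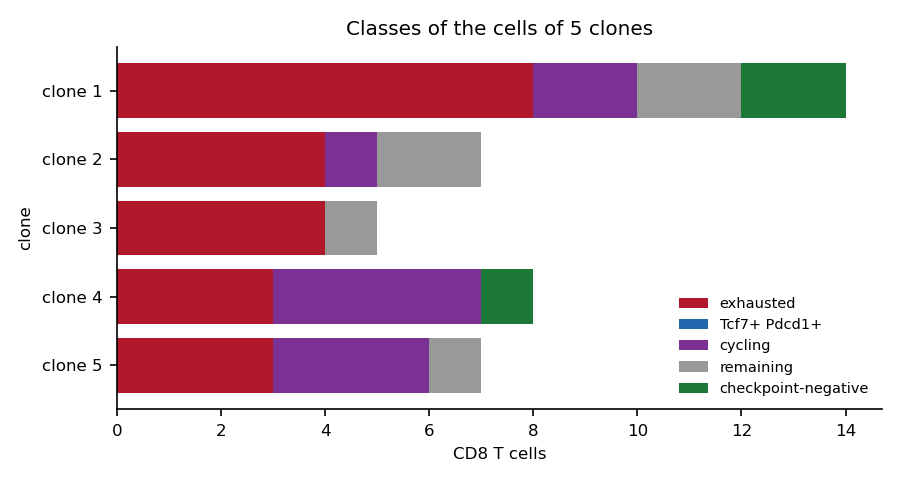
Number of CD8+ T cells of each class in the 5 clones with 3 or more exhausted members. Clone 1 has 8 exhausted cells of 14, and cycling cells are found in clones 1, 2, 4 and 5.

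Gene levels varied between these clones. *Gzmb* ran from 1711 CPM (1154 to 2442) in the members of clone 4 to 4870 CPM (4307 to 5485) in those of clone 3. *Gzmc* ran from 485 CPM (320 to 706) in clone 3 to 2559 CPM (2023 to 3194) in clone 5, and *Ifng* from 108 CPM (39.6 to 235) in clone 3 to 1312 CPM (831 to 1968) in clone 4. Clone 3 thus had the highest *Gzmb* and the lowest *Ifng*, and clone 4 the reverse. Each level rests on 3 to 8 cells. Reduced to 1 cell per clone, the ratios between members and checkpoint-negative cells were 15.8 for *Prf1* and 73.6 for *Gzmc*.

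Beta chain V genes were counted once per clone. TRBV19 was used by 29 of 156 member clones, 18.6% (12.8 to 25.6), and by 33 of 443 checkpoint-negative clones, 7.45% (5.18 to 10.3), a difference of 11.1 points (4.70 to 18.5). It had the largest difference among 22 V genes and was singled out after its value was seen. TRBV15 was the other V gene whose interval of the difference left out 0, with 3 of 156 and 33 of 443 clones, a difference of -5.53 points (-8.76 to -1.28). TRBV16, the next most used by members, was at 13.5% (8.53 to 19.8) and 10.4% (7.70 to 13.6), which overlapped.

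The tags were too sparse to compare the tumors. A barcode of the tag library was found for 203 members, and a tumor could be given, by at least 1 tag UMI and all from tags of 1 tumor, for 26 of them, 19 on a single UMI. Of these 24 were from B16 and 2 from B16-IL33 (7.69%, 0.95 to 25.1), against 58 and 9 (13.4%, 6.33 to 23.97) among checkpoint-negative cells. Among all tagged CD8+ T cells, exhausted cells were 24 of 141 in B16 (17.0%, 11.2 to 24.3) and 2 of 21 in B16-IL33 (9.52%, 1.17 to 30.4), a difference of -7.50 points (-18.5 to 14.1) that includes no difference and changes in both directions. The share of each tumor in the sorted pool also sets these numbers and cannot be told apart from them.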

How the data were processed

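The authors deposited raw counts of UMIs per gene, per hashtag and per TCR contig, made with Cell Ranger from a combined human and mouse (mm10) reference, with no normalization. The labels name version 6.1.1 and the header of the count matrix 3.1.0; the tool for hashtag counts is not given in the sources used here. Barcodes were shared by the expression and tag libraries in 11756 cases and by all 3 libraries for 6610. Mouse genes numbered 31053, and 30934 were found in GENCODE vM21. UMIs were summed per class and scaled to CPM. A ratio of CPM had an exact conditional binomial interval, a CPM an exact Poisson interval and a share a Clopper-Pearson interval, with square-and-add intervals for differences. A ratio against a count of 0 used a floor of 3 counts. Genes needed 100 UMIs over both classes. The members, gene lists and comparisons were chosen with earlier results of these data known. Named genes were the 12 highest and 12 lowest ratios against checkpoint-negative cells, the 5 highest and 5 lowest against other classes, and members of the lists. Thinning drew 1500 UMIs per cell once with a fixed seed. The ratio intervals and the direction of the ratios were checked on simulated counts without spread between cells. That check cannot speak for genes whose UMIs lie in few cells, and the 2-fold calls were not part of it. The closing section gives the effect of the alternatives tried. Python 3.11.15, NumPy 2.4.6, SciPy 1.17.1, pandas 2.3.3 and Biopython 1.88 were used. Other libraries of the study were not analysed here, and some genes that the rule names are not reported here.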

Additional observations from a re-analysis of the deposited data

Results flagged for a closer look

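Human genes of the combined reference, which no comparison uses, had 205 UMIs in the exhausted CD8+ T cells, 0.0116% of their UMIs, above the limit of 3 counts that a count of 0 allows. The share was 0.0141% in checkpoint-negative cells. No control library bears on this value.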

How the results depend on the processing

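The results rest on 1 library, and the depth of the cells sets who is a member. Asking for both *Havcr2* and *Lag3* left 108 members and 202 genes at least 2-fold apart from cycling cells. Applying the rule after thinning to 1500 UMIs left 71 members, 63 genes higher than in checkpoint-negative cells, 42 genes of the lists past 2-fold, 127 genes apart from cycling cells, 23 apart between *Havcr2*+ and Lag3-only members, and 44.1% of members with a clone mate in another class. An upper limit of 2500 genes gave 87 higher and 133 lower genes, 49, 66 and 7 genes apart in the other comparisons (*Tcf7*+ *Pdcd1*+, cycling and *Havcr2*+ against Lag3-only), and 27.0% with a clone mate elsewhere. A minimum of 50 UMIs per gene gave 215 higher and 399 lower genes and 254, 578 and 121 in the other comparisons, and a minimum of 200 gave 92 and 108, and 56, 171 and 22. Cells of at least 3000 UMIs gave 139 lower genes. Clones by the beta chain gave 44.6% with a clone mate elsewhere, and expansion from 3 cells a difference of 17.2 points. The other 76 of these values stayed within 1.5 times or within their intervals.

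Of 2124 ratios of single genes with at least 100 UMIs under the alternatives that can move a ratio, 1584 stayed within their counting interval, 531 lay outside it and 9 turned. Under the thinned rule 73 stayed, 135 lay outside and 3 turned. After thinning the rule, *Cxcl10* stood at 1.26, *Il2ra* at 0.96 and *Tnf* at 1.07. As a mean over cells, *Apoe* stood at 1.15, *C1qa* at 1.20, *C1qb* at 1.06 and *C1qc* at 1.04. With 1 cell per clone, *Ccl2* stood at 1.09 and *Spp1* at 1.70. Alternatives on other lists and classes, on cells with foreign UMIs and on the top cell were added after seeing the data. The causes were not tested. No paired analysis was possible because there is 1 sample.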
